A study of Mus musculus with 9 samples.

Results

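The Krüppel-like factors (KLFs) are a family of zinc finger transcription factors, and the transcripts of 10 of them (Klf2, Klf3, Klf4, Klf5, Klf6, Klf7, Klf9, Klf10, Klf11 and Klf13) were followed in MC38 cells, a mouse colon carcinoma line. These were 10 of the 16509 genes in the deposited table and were found by symbol. They were chosen by their read counts and changes in these same libraries, across all 3 groups, so their values are given as a description and carry no p-value. Messenger RNA was sequenced from 9 libraries, 3 in each group. Control cells (Ctrl) received DMSO by the sample labels and PBS by the study's text. Cu-Cys cells received copper with cystine. Cadict cells received nanoparticles in which copper and cystine are joined by coordination, loaded with glucose oxidase, an enzyme that consumes glucose, and coated with GE11, a peptide that binds the epidermal growth factor receptor. All groups were the same unmodified line in culture, and the dose and duration behind these libraries are not given in the sources used here. Columns marked CCGE were taken as Cadict, an inference from its ingredients. The study states in general that its culture experiments were repeated independently and gives n = 3 for this sequencing, but the sources used here do not say for these libraries which step was repeated, so the errors measure the spread between the libraries, part of which may be technical.

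KLFs share a C-terminal block of zinc fingers that binds GC-rich and CACCC sequences, and they differ in the N-terminal part that recruits cofactors. KLF2, KLF4, KLF5, KLF6 and KLF7 recruit histone acetyltransferases and often activate, KLF3 recruits the corepressor CtBP, and KLF9, KLF10, KLF11 and KLF13 recruit the SIN3A corepressor. In gut epithelium KLF4 is known for restraining division in differentiated cells and KLF5 for its presence in dividing crypt cells. Many KLF transcripts are short-lived and respond early to growth factors, shear stress, TGF-beta or glucocorticoids.

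Library totals lay between 17905771 and 18293056 expected counts, and a count of 0 allows up to 3 counts, which is 0.164 to 0.168 CPM (counts scaled by library total) and covers counting error only. Levels are given as CPM after TMM scaling, which sets the typical gene equal between libraries, and changes as log2 fold changes from one edgeR quasi-likelihood fit of the 3 groups. The limit for a count of 0 is before TMM scaling, and on the TMM scale it is lower in Ctrl and Cu-Cys and higher in Cadict libraries. On that scale 3 counts are 0.130 CPM in Ctrl replicate 1, and 1 count is 0.0849 CPM in Cadict replicate 1. The standard errors printed with the changes are the size of the change divided by the square root of its F statistic. They are not a direct estimate of the error and may be too small for genes with few reads. TMM factors were 1.26 to 1.27 in Ctrl, 1.21 in Cu-Cys and 0.640 to 0.665 in Cadict libraries, so the scale matters most for Cadict. With library totals alone, the median log2 change of all 11949 tested genes in Cadict against Ctrl was -1.08 in place of -0.13, a shift of -0.95, and with DESeq2's size factors it was -0.0063. Changes with Cadict are therefore relative to the typical gene. Cadict replicate 2 stood apart from the other Cadict libraries, with a chi-square per gene of 14.7 and 23.1 against them, where replicates 1 and 3 gave 3.63 and Ctrl pairs gave 1.88 to 2.05. All 10 KLF genes passed the filter on low counts. Markers of the labelled tissue were low: Epcam and Cldn7 were at 0 in all Ctrl and Cu-Cys libraries and Krt8 was at 0.116 ± 0.066 CPM (SD, n = 3), whereas the collagen gene Col1a2 was at 568 ± 13.9 CPM (SD, n = 3). Of 9 epithelial markers 7 had a row and 2 were tested, with a summed level of 5.32 to 6.83 CPM in Ctrl, 3.97 to 4.38 in Cu-Cys and 24.1 to 26.2 in Cadict. Most of each sum came from Cdh1 and Krt19. Cdh1 was at means of 4.86, 3.12 and 12.8 CPM in Ctrl, Cu-Cys and Cadict, and Krt19 at 1.05, 0.840 and 10.8 CPM. The 7 fibroblast markers, of which 6 were tested, summed to 1045 to 1113 CPM in Ctrl, 543 to 557 in Cu-Cys and 202 to 222 in Cadict. Most of the Ctrl sum was Col1a2 and Col3a1, at means of 568 and 368 CPM. Col1a1, Pdgfra and Pdgfrb were also lower in Cadict than in Ctrl. Dcn, however, was scarce and went from a mean of 0.607 to 1.08 CPM, and Lum was at 0 in all Ctrl libraries. Of 6 leukocyte markers 5 had a row and 1 was tested, Cd68, and their sum was 3.38 to 3.85, 2.42 to 2.91 and 16.1 to 19.0 CPM. The 4 endothelial markers, of which 2 were tested, summed to 1.05 to 1.95, 0.914 to 1.64 and 2.09 to 3.61 CPM. The part of these markers in the KLF values was not tested, and in bulk RNA fewer cells of a type and less RNA per cell cannot be told apart.

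The promoter sequences of Klf2 and Klf4, the 2 genes with the largest changes described below, and of Klf6, the most abundant member in Cadict cells, are shown to set their start sites side by side. Each is the RefSeq window of GRCm38.p6 from 250 bases before to 50 bases after the start site, 5′ to 3′ on the gene's strand, with capitals for TATAA and CCAAT on either strand and for MEF2 sites. MEF2 is the factor through which the kinase ERK5 activates Klf2. Klf2 lies at chr8:72318812-72319111 on the plus strand, Klf4 at chr4:55532426-55532725 on the minus strand and Klf6 at chr13:5861239-5861538 on the plus strand.
Klf2: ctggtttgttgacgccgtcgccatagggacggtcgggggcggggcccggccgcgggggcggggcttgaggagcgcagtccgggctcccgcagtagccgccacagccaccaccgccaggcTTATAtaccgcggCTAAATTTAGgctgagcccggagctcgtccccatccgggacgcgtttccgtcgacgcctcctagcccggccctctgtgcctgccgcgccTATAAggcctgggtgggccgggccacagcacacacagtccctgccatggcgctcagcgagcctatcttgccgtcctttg
Klf4: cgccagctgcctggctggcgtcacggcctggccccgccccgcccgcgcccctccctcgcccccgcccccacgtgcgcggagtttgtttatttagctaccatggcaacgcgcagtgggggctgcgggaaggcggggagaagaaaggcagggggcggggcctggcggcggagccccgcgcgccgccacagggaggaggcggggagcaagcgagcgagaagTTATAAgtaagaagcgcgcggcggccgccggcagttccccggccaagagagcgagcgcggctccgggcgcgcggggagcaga
Klf6: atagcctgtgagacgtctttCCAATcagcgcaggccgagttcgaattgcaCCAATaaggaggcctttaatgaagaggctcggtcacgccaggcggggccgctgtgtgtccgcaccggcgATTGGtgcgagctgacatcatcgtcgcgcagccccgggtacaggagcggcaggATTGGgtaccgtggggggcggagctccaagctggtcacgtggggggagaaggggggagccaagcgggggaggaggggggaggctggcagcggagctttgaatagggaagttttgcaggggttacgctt
A TATAA began 29 bases before the start site in Klf2 and 31 bases before it in Klf4, and matches on the opposite strand lay at -131 in Klf2 and, overlapping, at -32 in Klf4. Klf6 held no TATAA in its window and had 4 CCAAT matches. Of the 8 members with a promoter entry, only Klf2 and Klf4 held TATAA, which 13.2% of the 12235 promoters of tested genes hold. Klf2 also held a MEF2 site beginning at -118, and no other member's window did, against 1.5% of promoters of tested genes. CCAAT occurred in Klf6, Klf9, Klf11 and Klf13, against 38.3% of promoters of tested genes. The KLF-type CACCC sequence occurred in 5 of the 8 (63.4% of promoters of tested genes) and the GC box GGGCGG in 7 of the 8 (62.8%). The antioxidant element pattern TGACNNNGC began at -227 in Klf3 and at -174 in Klf6, against 14.3% of promoters of tested genes. The AP-1 pattern TGANTCA began at -89 in Klf9, against 5.25%. No window of the 8 held a CArG box, the site of SRF, a cyclic AMP element TGACGTCA, the heat shock patterns GAANNTTC or TTCNNGAA, or the ATF4-type pattern TGATGNAA. Searches covered both strands, and a match or its absence is a description of these letters. Klf5 and Klf10 had no entry.

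In Ctrl cells the family was led by Klf4, Klf2 and Klf6. Compared per transcript length, in the deposited TPM (transcript abundance scaled by length and library), Klf4 was at 256, 250 and 243 in the 3 Ctrl libraries. Klf2 was at 197, 194 and 184, and Klf6 at 145, 141 and 140. Klf4 was above 94.8% of tested genes by its mean TPM, Klf2 above 93.2% and Klf6 above 90.7%. Below them came Klf3 (mean 83.2 TPM), Klf10 (49.7), Klf9 (38.8), Klf7 (32.7), Klf13 (17.6), Klf5 (10.9) and Klf11 (9.83). In this order the ranges of neighbours did not overlap, except for Klf5 (9.58 to 13.2 TPM) and Klf11 (9.42 to 10.1 TPM). Within each Ctrl library Klf5 was above Klf11. The same 3 genes led in Cu-Cys cells, at 175, 138 and 124 TPM for Klf4, Klf2 and Klf6. In Cadict cells Klf6 came first at 72.2 to 100.2 TPM, and Klf2 came last at 1.13 to 1.42 TPM, above 22.0% of tested genes. Between these, Klf4 (17.5 to 24.95 TPM), Klf3 (14.01 to 21.3 TPM) and Klf9 (13.2 to 20.5 TPM) overlapped as ranges. Within each Cadict library, however, Klf4 was above Klf3 and Klf3 above Klf9. Klf7 (7.62 to 13.99 TPM) and Klf10 (8.73 to 13.3 TPM) overlapped each other and reached the lowest Klf9 library, and Klf5 (3.99 to 8.38 TPM) overlapped Klf7 but lay below Klf10. Within each Cadict library Klf7 and Klf10 were below Klf9, and Klf5 was below Klf7. Klf13 (2.58 to 3.20 TPM) and Klf11 (1.79 to 2.11 TPM) lay apart from their neighbours.

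**Figure D1:**
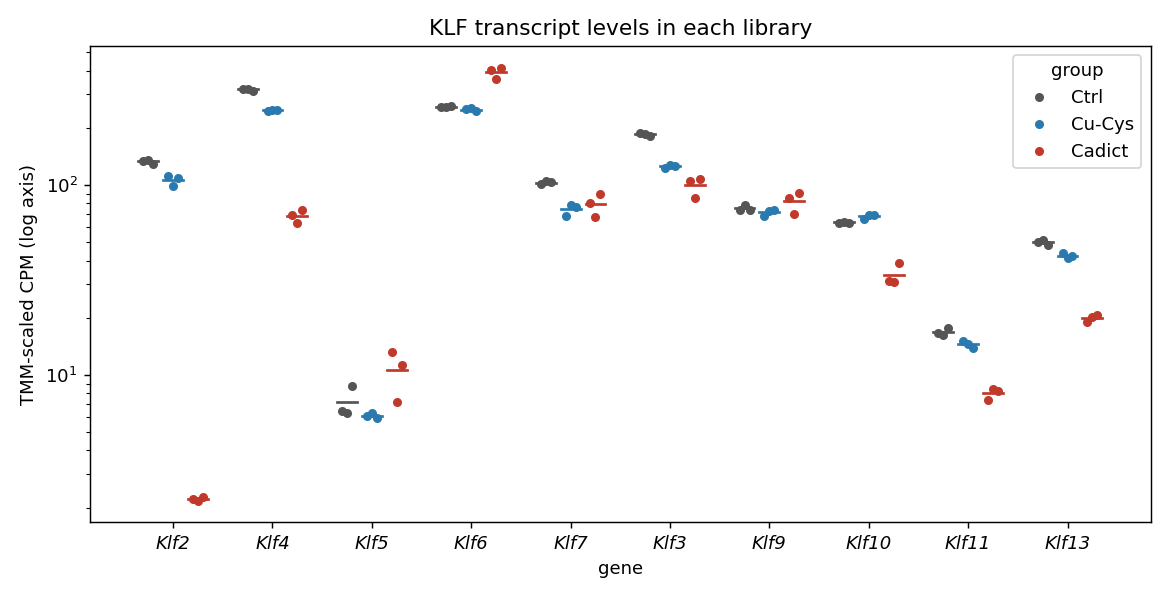
Level of each KLF gene in each library, as TMM-scaled CPM on a log axis, with points for libraries and short lines for group means (3 libraries a group). Klf2 sits between 129 and 136 CPM in Ctrl and between 2.18 and 2.27 CPM in Cadict, while Klf6 is higher in all 3 Cadict libraries (362 to 415 CPM) than in Ctrl (258 to 259 CPM).

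In Cadict against Ctrl cells, Klf2, Klf4, Klf13 and Klf11 were lower past the study's threshold of a 2-fold change and an adjusted p of at most 0.001, and no member was higher past it. These 4 of 10 stand beside 47.8% of all tested genes called in this comparison, 27.1% lower and 20.7% higher. The rule that chose the genes used this comparison, so nothing is read from the count. Across the 10 genes the median change was -0.90 (log2), beside -0.13 for all tested genes, and 7 of the 10 were below 0. Without a limit on the fold, at an adjusted p of at most 0.05, 7 members were lower and 2 higher, beside 87.7% of all tested genes called at that threshold, 47.1% lower and 40.6% higher. The Cadict and Ctrl libraries did not overlap for 8 members, 7 lower and 1 higher, as for 87.5% of all tested genes, 47.3% lower and 40.3% higher.

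Klf2, the shear-stress factor that keeps endothelial cells and lymphocytes quiescent, showed the largest change. Its level was 134, 136 and 129 CPM in Ctrl cells and 2.21, 2.18 and 2.27 CPM in Cadict cells, from 25 to 27 reads a library. All 3 Cadict libraries were far below every Ctrl library and close to each other. The log2 fold change was -5.90 (standard error 0.10), 59.9-fold lower, which ranked 32nd from the lowest of 11949 tested genes. DESeq2's own fit of these 2 groups gave -5.79 with a larger standard error of 0.18.
Klf4, a restraint on epithelial division and one of the reprogramming factors, was at 321, 321 and 314 CPM in Ctrl cells and 69.3, 63.3 and 74.2 CPM in Cadict cells. The groups were separate, and the log2 fold change was -2.21 (standard error 0.06), 4.62-fold lower, with 9.56% of tested genes below it. Klf2 and Klf4 were called in both Cadict comparisons under every alternative scaling, filter, tool and omitted library tried.
Klf6, an early-response gene that can restrain growth through Cdkn1a, was the most abundant member by counts in Cadict cells. It was at 258, 259 and 259 CPM in Ctrl and 402, 362 and 415 CPM in Cadict cells, with no overlap. Its log2 fold change was 0.60 (standard error 0.05) with TMM and 0.72 with DESeq2's size factors, but -0.35 with library totals, so its direction depends on the scale.
Klf5, a promoter of crypt cell division, was scarce and variable. It was at 6.49, 6.32 and 8.72 CPM in Ctrl and 13.3, 7.23 and 11.2 CPM in Cadict cells, and the groups overlapped because Cadict replicate 2 lay below Ctrl replicate 3. The log2 fold change was 0.56 (standard error 0.17), 0.77 without Cadict replicate 2, 0.37 without Cadict replicate 1 and -0.39 with library totals. Without Cadict replicate 1 it no longer passed the adjusted p of 0.05 at which it was counted as higher.
Klf7, a regulator of neurons and fat cells, was at 101, 105 and 103 CPM in Ctrl and 80.2, 67.5 and 89.8 CPM in Cadict cells. The Cadict libraries lay below all Ctrl libraries but differed among themselves more than the Ctrl libraries did. Its log2 fold change was -0.38 (standard error 0.08), and 38.2% of its transcripts' 50-base stretches also occur in Gm26649, a noncoding gene on the other strand, whose reads may be mixed with its own if counting ignored strand.

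Klf3, the CtBP-recruiting repressor of erythroid and fat cell genes, was at 187, 185 and 182 CPM in Ctrl and 105, 85.8 and 108 CPM in Cadict cells. The groups were separate, and the log2 fold change of -0.89 (standard error 0.07) fell short of 2-fold. Some of its 50-base stretches (3.48%) recur in other annotated genes.
Among the SIN3A-recruiting members, Klf13 and Klf11 were past the threshold and Klf10 was just short of it. Klf13, an activator of Ccl5 in T cells, was at 49.98, 51.5 and 48.3 CPM in Ctrl and 19.0, 20.2 and 20.6 CPM in Cadict cells, a log2 fold change of -1.32 (standard error 0.06). Every Cadict library was below every Ctrl library, and 2 annotated genes overlap Klf13 on the other strand.
Klf11, a TGF-beta-inducible repressor, was at 16.7, 16.2 and 17.6 CPM in Ctrl and 7.39, 8.45 and 8.23 CPM in Cadict cells. Its log2 fold change of -1.07 (standard error 0.09) was just past 2-fold, and with DESeq2's size factors it was -0.95, short of the call. Klf10, the TGF-beta-inducible early gene that represses Smad7, was at 63.1, 63.8 and 63.4 CPM in Ctrl and 31.3, 30.7 and 38.8 CPM in Cadict cells. It lay just outside 2-fold at -0.92 (standard error 0.07), and Cadict replicate 3 decided this, since without that library the value was -1.04 and called.
Klf9, a glucocorticoid- and thyroid hormone-inducible factor, gave overlapping groups, at 73.8, 78.8 and 74.0 CPM in Ctrl and 85.2, 70.5 and 90.8 CPM in Cadict cells. Its log2 fold change was 0.12 (standard error 0.08), 0.22 without Cadict replicate 2 and 0.04 without Cadict replicate 3, and it turned to -0.83 with library totals. Without Cadict replicate 2 it passed an adjusted p of 0.05.

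**Figure D2:**
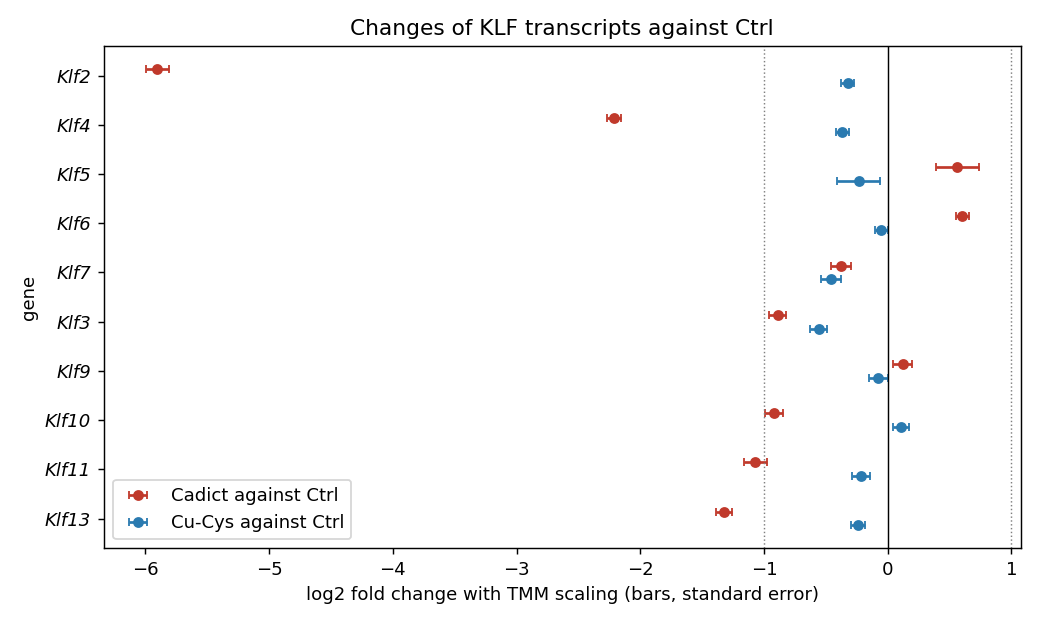
Log2 fold change of each KLF gene against Ctrl in Cadict (red) and Cu-Cys (blue) cells, with TMM scaling. Bars are standard errors and dotted lines mark 2-fold. Klf2 is at -5.90 with Cadict and -0.32 with Cu-Cys.

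**Figure D3:**
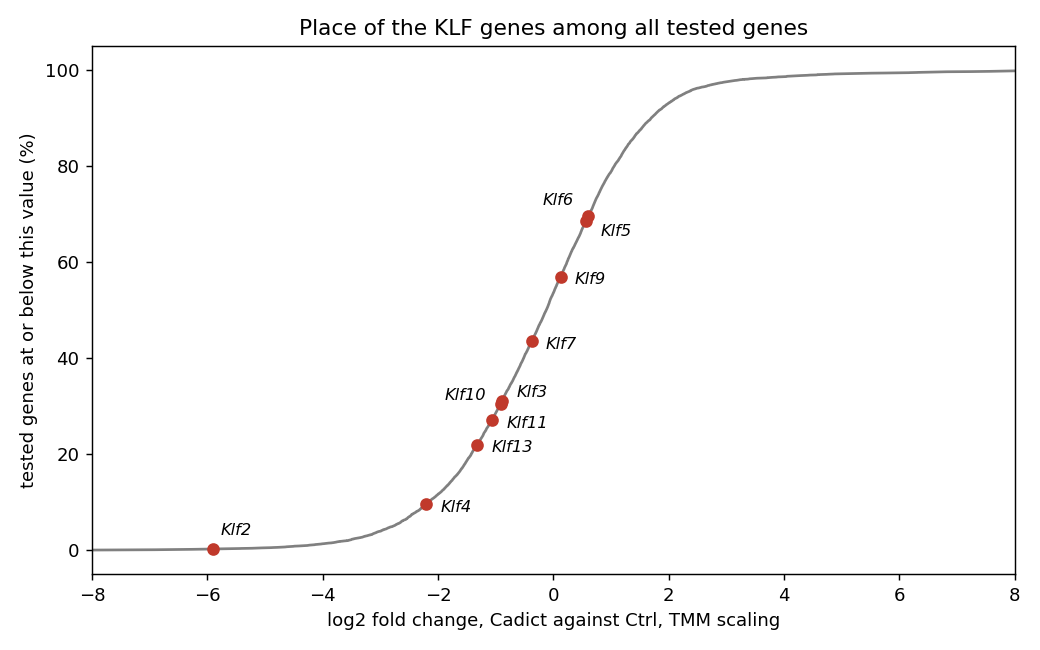
Cumulative distribution of the log2 fold change in Cadict against Ctrl over all 11949 tested genes (grey line), with the 10 KLF genes as red points at the percent of tested genes below them. Klf2 is below all but 0.259% of tested genes, and Klf6 and Klf5 lie at 69.6% and 68.5%.

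Ratios between members within a library do not depend on the scaling between libraries. Klf6 had 0.811 ± 0.011 counts for each Klf4 count in Ctrl, 1.01 ± 0.020 in Cu-Cys and 5.70 ± 0.103 in Cadict cells (SD, n = 3 each). Klf4 had 2.39 ± 0.032 counts for each Klf2 count in Ctrl cells and 31.1 ± 1.85 in Cadict cells (SD, n = 3 each). These ratios did not overlap between Ctrl and Cadict libraries, so Klf4 was lower relative to Klf6, and Klf2 relative to Klf4, whatever the scaling between libraries. Among the SIN3A group, Klf9 had 1.19 ± 0.039 counts for each Klf10 count in Ctrl cells and 2.46 ± 0.235 in Cadict cells (SD, n = 3 each).
The makeup of the family changed accordingly. Of the summed TPM of the 10 genes, Klf4 took 30.2% ± 0.115 in Ctrl cells, Klf2 23.2% ± 0.347 and Klf6 17.2% ± 0.158 (SD, n = 3 each). In Cadict cells Klf6 took 49.2% ± 1.296, Klf4 12.0% ± 0.275 and Klf2 0.724% ± 0.059 (SD, n = 3 each). Klf9 took 4.70% ± 0.150 in Ctrl and 9.60% ± 0.331 in Cadict cells, and Klf5 1.33% ± 0.263 and 3.62% ± 0.839 (SD, n = 3 each). The shares of Klf3 (10.1% ± 0.126 and 10.2% ± 0.342) and Klf10 (6.02% ± 0.048 and 5.99% ± 0.457) overlapped between these groups (SD, n = 3 each). The summed TPM of the 10 genes was 825.5 ± 18.7 in Ctrl, 621.5 ± 11.5 in Cu-Cys and 179.5 ± 33.5 in Cadict cells (SD, n = 3 each), on a scale without TMM. In summed TMM-scaled CPM they had 1211 ± 11.0 in Ctrl, 1007 ± 4.44 in Cu-Cys and 797 ± 72.0 in Cadict cells (SD, n = 3 each).

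**Figure D4:**
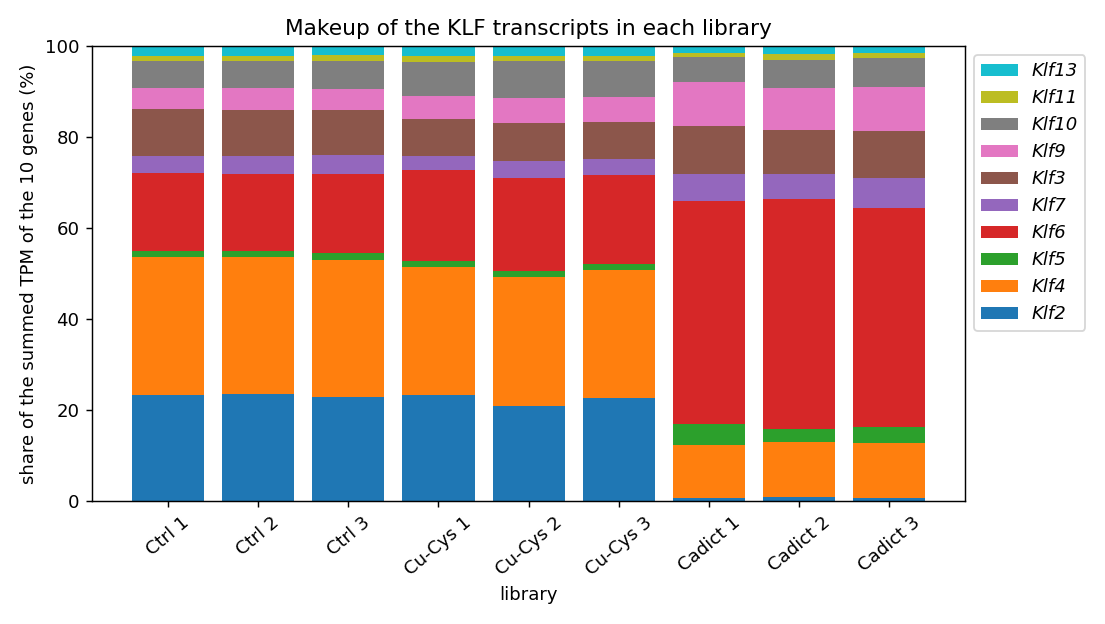
Share of each gene in the summed TPM of the 10 KLF genes, as stacked bars that reach 100% in each of the 9 libraries. Klf6 takes 17.1% to 17.4% in Ctrl and 48.1% to 50.6% in Cadict libraries, where Klf2 takes under 1%.

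In Cu-Cys against Ctrl cells no member was past the 2-fold threshold, while 1.64% of tested genes were, 1.47% lower and 0.167% higher. With the fold limit dropped and the adjusted p held to 0.05, Klf2, Klf3, Klf4, Klf7, Klf11 and Klf13 were lower and none was higher, beside 45.0% of tested genes, 22.4% lower and 22.6% higher, and this comparison too was used in choosing the genes. The median log2 fold change of the members was -0.24, beside 0.0067 for all tested genes. The libraries of the groups did not overlap for any of the 10 genes, 9 lower and 1 higher, as for 61.2% of all tested genes, 29.9% lower and 31.4% higher.
Klf3 had the largest of these changes, with 123, 127 and 126 CPM in the Cu-Cys libraries, all below Ctrl, with a log2 change of -0.56 (standard error 0.07). Klf7 followed at 69.0, 78.8 and 76.9 CPM, a log2 fold change of -0.46 (standard error 0.08). Side by side, Klf7 was at -0.46 and -0.38 and Klf3 at -0.56 and -0.89 in Cu-Cys and Cadict cells, while Klf4 was at -0.37 and -2.21 and Klf2 at -0.32 and -5.90. Both comparisons share the Ctrl libraries, and the difference between them is the Cadict against Cu-Cys comparison below.
Klf4 was at 247, 248 and 247 CPM and Klf2 at 112, 98.5 and 109 CPM with Cu-Cys. Klf13 (-0.24, standard error 0.05) and Klf11 (-0.22, standard error 0.07) were modestly lower. Klf11 was at -0.22 without Ctrl replicate 1 or Cu-Cys replicate 2 and -0.19 without Ctrl replicate 3 or Cu-Cys replicate 3, each short of the adjusted p of 0.05. Klf10, at 66.5, 69.5 and 69.2 CPM, was the only member above Ctrl, with a log2 fold change of 0.11 (standard error 0.07) that turned to -0.035 on log2 TPM with a pseudocount of 0.1. Klf5 (-0.23, standard error 0.17), Klf9 (-0.07, standard error 0.07) and Klf6 (-0.05, standard error 0.05) were within 2 standard errors of 0, and Klf5 was at -0.07 without Ctrl replicate 3.

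Between Cadict and Cu-Cys cells, Klf2, Klf4, Klf13 and Klf10 were lower past the threshold and no member was higher, beside 42.2% of tested genes called, 23.6% lower and 18.6% higher. At an adjusted p of 0.05 alone, 6 were lower and 3 higher, beside 85.9% of tested genes, 45.6% lower and 40.3% higher. Libraries did not overlap for 8 members, 6 lower and 2 higher, beside 85.0% of tested genes, 45.4% lower and 39.6% higher. This comparison was also used in choosing the genes. The log2 fold changes were -5.58 (standard error 0.10) for Klf2, -1.84 (standard error 0.06) for Klf4, -1.08 (standard error 0.06) for Klf13 and -1.03 (standard error 0.07) for Klf10. Klf13 and Klf10 lay close to 2-fold: with DESeq2's size factors they were at -0.99 and -0.93, short of it, and Klf10 was at -0.98 without Cadict replicate 1 and -0.97 without Cadict replicate 2. Klf11 lay just outside at -0.85 (standard error 0.09). Klf5 was at 0.80 (standard error 0.18), and without Cadict replicate 2 it reached 1.00 and was called higher. Klf6 was at 0.65 (standard error 0.05) with TMM and -0.23 with library totals. Klf3 (-0.33), Klf9 (0.20) and Klf7 (0.08) differed least. Klf9 was at 0.11 without Cadict replicate 3 and 0.17 without Cadict replicate 1 or without Cu-Cys replicate 1, each short of the adjusted p of 0.05 it had passed. Klf7 turned to -0.02 without Cadict replicate 3, and without Cadict replicate 2 it was at 0.18 and passed that p. The median of the 10 genes was -0.59, beside -0.10 for all tested genes.

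**Figure D5:**
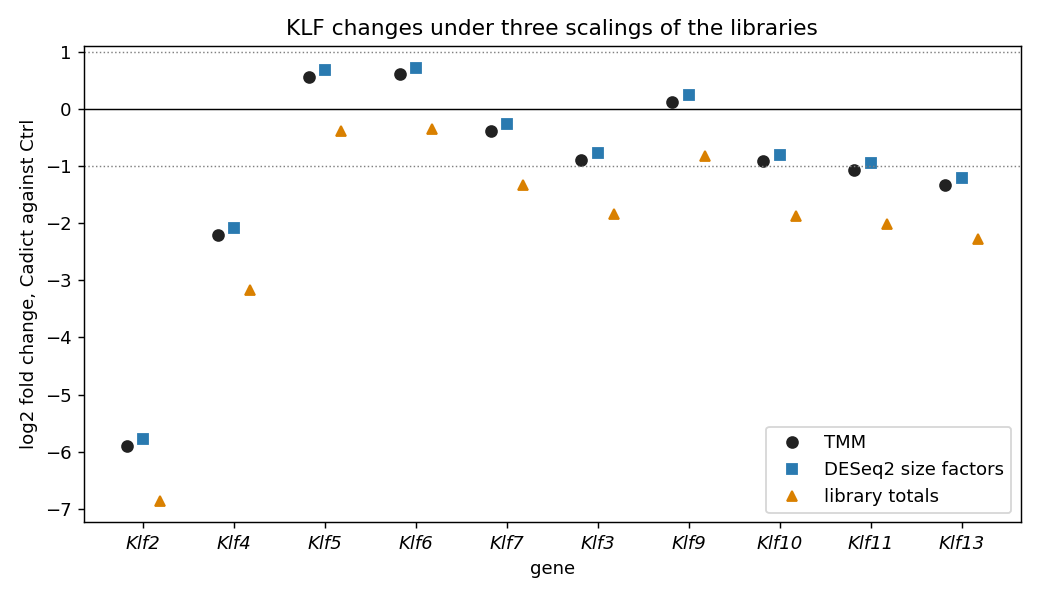
Log2 fold change of each KLF gene in Cadict against Ctrl cells with TMM scaling (circles), DESeq2's size factors (squares) and library totals (triangles); dotted lines mark 2-fold. Klf5, Klf6 and Klf9 are above 0 with TMM and DESeq2's factors and below 0 with library totals.

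Of the other KLF genes, Klf16 alone was abundant enough to test. Klf16, also of the SIN3A-binding branch, was at 29.1, 29.0 and 24.0 CPM in Ctrl, 33.9, 29.5 and 34.1 CPM in Cu-Cys and 23.9, 22.7 and 23.3 CPM in Cadict cells. It was lower in Cadict than in Cu-Cys cells, by -0.48 on the log2 scale (standard error 0.09, Benjamini-Hochberg adjusted p = 1.15e-04 from edgeR). With library totals its change in Cadict against Ctrl was -1.19 and called, and with DESeq2's size factors -0.11. Against Ctrl with TMM it was at -0.23 with Cadict (adjusted p = 0.0236, same edgeR test) and 0.25 with Cu-Cys (adjusted p = 0.0210, same edgeR test). Klf1, the erythroid factor, had at most 5 counts in any library, as did Klf8, Klf12, Klf15 and Klf17, and Klf14 had no row under that symbol.
The SP factors bind the same GC-rich sequences, and 4 of 9 were tested. Against Ctrl, 2 were called higher with Cadict and 0 lower, beside 20.7% of all tested genes called higher and 27.1% lower. Sp4 went from 11.1 ± 0.462 to 42.4 ± 7.67 CPM, 1.93 on the log2 scale (standard error 0.12, adjusted p = 2.0e-10, edgeR), and Sp1, the widely expressed GC-box activator, from 199 ± 2.45 to 470 ± 53.3 CPM, 1.24 (standard error 0.07, adjusted p = 1.0e-10, edgeR; SD, n = 3 each). With library totals both stayed above 0, at 0.98 and 0.29, without the call. Sp3 was lower at -0.79 (adjusted p = 4.7e-07, edgeR), short of 2-fold, and was at -1.74 with library totals. With Cu-Cys, Sp4, Sp1 and Sp3 were at 0.13, -0.07 and -0.18.

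The cofactors and regulators of KLFs were measured as lists written from general knowledge, with earlier results of these data known. In these lists, in the target lists below and for the SP factors above, genes were named for having the largest changes with Cadict. Their adjusted p-values with Cadict are therefore small by selection and only describe the genes named. The background for them is the same 47.8% called with Cadict, 20.7% higher and 27.1% lower. Over all lists, 19 genes were called higher and 22 lower of 83 tested with Cadict, and with library totals the split was 8 higher and 45 lower. With Cu-Cys 1 of the 83 was called, beside 1.64% of all tested genes, or 40 when only the adjusted p, at 0.05, was required, beside 45.0%. Of 11 corepressor genes, all tested, 1 was called higher and 1 lower with Cadict, with a median log2 fold change of -0.11 beside -0.13 for all genes. Sin3a, the scaffold that KLF9, KLF10, KLF11 and KLF13 recruit, fell from 106 ± 1.87 to 43.2 ± 3.29 CPM (log2 fold change -1.29, standard error 0.06, adjusted p = 6.2e-12, edgeR). Ctbp2, a partner of KLF3, rose from 62.4 ± 0.782 to 126 ± 5.90 CPM (1.01, standard error 0.05, adjusted p = 2.8e-11, edgeR; SD, n = 3 each), and with library totals was at 0.06. Hdac2 was at 0.96, short of 2-fold, and at 0.0036 with library totals.
Of 7 coactivator genes 2 were called lower and 0 higher. These were the acetyltransferases Kat2b, at 46.5 ± 2.91 and 15.1 ± 1.21 CPM (-1.62, standard error 0.08), and Kat2a, at 99.4 ± 1.71 and 34.7 ± 0.937 CPM (-1.52, standard error 0.06; SD, n = 3 each). Wdr5 was at 0.92 and turned to -0.03 with library totals. Of 9 ubiquitin ligase genes 3 were called lower and 0 higher, among them Vhl, part of a ligase for KLF4 (-1.58, standard error 0.09) and Wwp1, which marks KLF2 and KLF5 for degradation (-1.18, standard error 0.06). The third was Fbxo32 (-1.64, standard error 0.15), named after its value was seen, and Smurf2 was at 0.63, or -0.32 with library totals.

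The ERK5 to MEF2 route, known for driving Klf2 and Klf4, was split with Cadict. Of its 8 genes, all tested, 3 were called higher and 2 lower, with a median log2 fold change of -0.19. Mapk7, which encodes ERK5, fell from 32.8 ± 1.54 to 11.6 ± 2.11 CPM (-1.50, standard error 0.10, adjusted p = 4.6e-10, edgeR), and Mef2c from 18.9 ± 0.721 to 7.39 ± 0.383 CPM (-1.35, standard error 0.09, adjusted p = 7.0e-10, edgeR; SD, n = 3 each). Mef2a, in contrast, rose from 79.8 ± 3.22 to 321 ± 44.1 CPM (2.01, standard error 0.08, adjusted p = 2.8e-12, edgeR; SD, n = 3 each) and was still at 1.06 with library totals. The others called higher were Map3k2 (1.04) and the scarce Mef2b (3.14), named after their values were seen. With Cu-Cys, Mef2c was at 0.29 (standard error 0.07, adjusted p = 0.0025, edgeR).
Of the 12 TGF-beta and SMAD genes, which include inducers of Klf10 and Klf11, 4 were called higher and 4 lower, with a median of -0.45. The shares of all tested genes were 20.7% higher and 27.1% lower. The ligand Tgfb3 fell from 21.4 ± 0.130 to 1.42 ± 0.144 CPM (-3.90, standard error 0.13) and the receptor Tgfbr2 from 63.4 ± 2.85 to 12.98 ± 1.41 CPM (-2.29, standard error 0.08), whereas Skil, a repressor of SMADs, rose from 88.0 ± 2.60 to 558 ± 45.5 CPM (2.67, standard error 0.06; SD, n = 3 each). With Cu-Cys these 3 genes were at -0.54, -0.59 and -0.13.
Among 10 other inducers of KLF genes, 3 were called higher and 0 lower with Cadict, beside 20.7% and 27.1% of all tested genes. Egr1, an immediate early factor, rose from 19.6 ± 1.03 to 342 ± 56.6 CPM (4.13, standard error 0.10), Trp53, the p53 gene, from 176 ± 8.20 to 618 ± 1.31 CPM (1.81, standard error 0.06) and Srf, the serum response factor, from 50.6 ± 0.437 to 141 ± 12.5 CPM (1.48, standard error 0.06; SD, n = 3 each). With library totals they were at 3.18, 0.86 and 0.53.

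Genes known as targets of KLFs in other cells went both ways. The target lists were not split into activated and repressed genes, so their counts and medians carry no expected direction. Beside these lists, 20.7% of all tested genes were called higher with Cadict and 27.1% lower. Of 9 tested targets of KLF2 and KLF4, 4 were called higher and 4 lower with Cadict, with a median of -0.85. Cdkn1a, the p21 gene that KLF4 and KLF6 activate, rose from 58.9 ± 0.391 to 426 ± 4.71 CPM (2.85, standard error 0.05, adjusted p = 3.66e-16, edgeR). The cyclin genes Ccnd1, from 1057 ± 4.94 to 112 ± 8.09 CPM (-3.24, standard error 0.06), and Ccne1, from 36.4 ± 1.14 to 5.002 ± 0.604 CPM (-2.86, standard error 0.09; SD, n = 3 each), fell. With Cu-Cys, Cdkn1a was at 0.42 (adjusted p = 1.55e-05, edgeR) and Ccnd1 at -0.35 (adjusted p = 9.7e-05, edgeR), both short of 2-fold.
Of 10 tested targets of KLF5 and KLF6, 2 were called higher and 5 lower, with a median of -0.70. Atf3, a stress factor, rose from 14.8 ± 2.15 to 1650 ± 90.7 CPM (6.80, standard error 0.09), and the mitotic genes Ccnb1 (-2.49, standard error 0.07) and Cdc25c (-1.88, standard error 0.11) fell. With Cu-Cys 1 gene of this list, the urokinase gene Plau, was called, at -1.29 (standard error 0.16, adjusted p = 2.4e-05, edgeR), named after its value was seen. Of 5 tested targets of the repressor members, 2 were called higher and 1 lower. Lgals3, which KLF3 represses, rose from 262 ± 8.82 to 1067 ± 162 CPM (2.02, standard error 0.08), Smad7, which KLF10 represses, from 22.3 ± 0.818 to 78.8 ± 2.06 CPM (1.82, standard error 0.06), and Bcl2 fell from 21.3 ± 1.39 to 5.52 ± 0.190 CPM (-1.95, standard error 0.10; SD, n = 3 each). With Cu-Cys, Lgals3 was at 0.54 and Smad7 at 0.27, with Klf3 at -0.56 and Klf10 at 0.11. Whether KLF3 or KLF10 acts on these genes in these cells was not tested. With library totals, Lgals3 was at 1.07 and Smad7 at 0.87 with Cadict.

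Genes of most similar pattern were sought among 8551 tested genes with at least 10 CPM on average, as the smallest Euclidean distance over the 9 libraries of log2 CPM centred on Ctrl. For Klf2 the nearest were Jrk (distance 1.23), Apc2 (1.24) and Chst12 (1.43), all far from it in comparison with other members. Apc2, a relative of the tumour suppressor Apc, was at -5.42 with Cadict and -0.69 with Cu-Cys, and Jrk at -5.76 and -0.16. For Klf4 they were Pygb (0.172), Nfix (0.175) and Trp53bp1 (0.193), for Klf6 Prdm2 (0.123), Zbtb21 (0.125) and Xpo7 (0.125), and for Klf3 Add1 (0.182), Amotl1 (0.210) and L1cam (0.231). The nearest gene was Mcc for Klf9 (0.122), Phf20 for Klf13 (0.111), Mfap3 for Klf10 (0.172), Trim2 for Klf7 (0.185) and Dync2h1 for Klf5 (0.409).

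The members also differed in their 3′ untranslated regions, where the AUUUA pentamer is a known element of unstable transcripts. In the longest annotated version (GENCODE M21, GRCm38), Klf2 held 1 AUUUA in 737 bases and Klf4 1 in 982 bases, 1.36 and 1.02 per kilobase, close to the median of 1.38 over 11185 tested genes. Klf7 held 18 in 6266 bases, Klf10 4 in 1492 bases and Klf9 8 in 3222 bases, 2.87, 2.68 and 2.48 per kilobase. Klf6 (2.25), Klf3 (1.87) and Klf11 (1.72) lay between, and Klf13 (0.582) and Klf5 (0.543) were lowest. Klf2 and Klf4 had neither the densest nor the sparsest AUUUA.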

How the data were processed

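Messenger RNA of 9 MC38 libraries was measured as 1 table by the authors. The deposited expected counts are estimated reads per gene without normalization. The deposited FPKM and TPM are scaled by the authors per length and library, and the deposited signal columns are counts divided by a size factor of unnamed method. The signal columns and 12 columns of averages were not used. Submitters' processing notes list HISAT2 2.1.0, Bowtie2 2.3.4.3, RSEM 1.3.1, GRCm39 and GRCh38.p13, without roles. The study's text names TRIzol and an Illumina instrument, the labels a kit and nanoball sequencing. Strand is not given in the sources used here.

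Counts were rounded and fitted in R 4.3.3 with edgeR 4.0.16 (filterByExpr, TMM, quasi-likelihood test, all 3 groups), with Benjamini-Hochberg adjustment over 11949 genes. The KLF members, the lists and the threshold (2-fold, adjusted p of at most 0.001) were chosen with earlier results of these data known. Named list genes were the 3 largest changes with Cadict at an average of at least 10 CPM. Alternatives used DESeq2 1.42.0, limma 3.58.1 on log2 FPKM and TPM with pseudocounts of 1 and 0.1, other filters and omitted libraries. Same-numbered libraries had residual correlations of -0.201 to 0.149, so numbers were not taken as pairs. The fit was tested on simulated data: 200 of 200 genes given a log2 change of 2 in Cadict against Ctrl were called among 11878, with 0 others. In the data a far larger share, 47.8% of tested genes, was called in this comparison. The simulation therefore cannot show how the fit or the TMM scaling behaves under so wide a change. Promoters and motifs came from RefSeq (GRCm38.p6) and transcripts from GENCODE M21, with 8 of 10 members matched to a promoter; no coordinates of the authors' build were used. The pattern most similar to Klf11 is not reported here.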

Additional observations from a re-analysis of the deposited data

How the results depend on the processing

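Over the alternatives, 496 values of the members' log2 fold changes kept their direction and their side of the threshold, 27 passed it, 8 no longer passed it and 39 turned direction. The cause was not tested. In Cadict against Ctrl, library totals gave -0.39 for Klf5, -0.35 for Klf6 and -0.83 for Klf9. On log2 FPKM with a pseudocount of 1 these were -0.36, -0.35 and -0.80, and with 0.1 they were -0.43, -0.36 and -0.84. On log2 TPM they were -0.69, -0.70 and -1.14 with 1, and -0.77, -0.70 and -1.18 with 0.1. In Cadict against Cu-Cys, for Klf5, Klf6, Klf7 and Klf9 in that order, library totals gave -0.085, -0.23, -0.80 and -0.69. On log2 FPKM they were -0.11, -0.23, -0.67 and -0.66 with a pseudocount of 1, and -0.14, -0.24, -0.73 and -0.69 with 0.1. On log2 TPM they were -0.36, -0.50, -0.94 and -0.93 with 1, and -0.41, -0.51, -0.998 and -0.97 with 0.1. Klf7 was at -0.0093 with no filter on low counts, and -0.024 to 0.18 with each library left out in turn. Klf10 in Cu-Cys against Ctrl was at -0.034 and -0.035 on log2 TPM with pseudocounts of 1 and 0.1.

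The members called in Cadict against Ctrl were 4, and 7 with library totals, 7 on log2 FPKM with either pseudocount, 8 on log2 TPM with either, and 9 at an adjusted p of 0.05 with no fold limit. Over all genes, 5707 were called in the main fit and 6976 with library totals. On log2 FPKM 6827 were called with a pseudocount of 0.1 and 5569 with 1, and on log2 TPM 7704 and 6864. In Cadict against Cu-Cys the members called were 4, and 2 with DESeq2's size factors or its Wald test, and 9 without the fold limit, and in Cu-Cys against Ctrl 0 and 6. All genes called in Cadict against Cu-Cys were 5041, and 5058 with DESeq2's size factors and 4958 with its Wald test. With each library left out, the members called were 4 to 5, 3 to 4 and 0. Genes called in Cu-Cys against Ctrl were 196, and 119 with at least 10 counts in every library, 71 on log2 FPKM and 117 on log2 TPM with a pseudocount of 1. Without the fold limit the genes called were 10484, 10263 and 5381 in Cadict against Ctrl, Cadict against Cu-Cys and Cu-Cys against Ctrl, and the listed regulator and target genes called were 75, 76 and 40 in place of 41, 36 and 1. Library totals moved the split of called genes in Cadict against Ctrl from 2472 higher and 3235 lower to 828 and 6148, and in Cadict against Cu-Cys from 2225 and 2816 to 688 and 5705. The replicate block left the members called at 4, 4 and 0 and the genes called at 5685, 5019 and 183. Depth limits Klf2 in Cadict cells, which rests on 25 to 27 reads a library, and no statement is made on KLF genes with at most 5 counts.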
